A study of Mus musculus with 32 samples.

Results

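Acly encodes ATP citrate lyase, the cytosolic enzyme that splits citrate into oxaloacetate and acetyl-CoA. The data come from interscapular brown fat (iBAT), a depot that burns lipid to make heat, of 32 male C57BL/6J mice aged 10 weeks that were not fasted and had free access to chow. One library was made per mouse, and 4 mice were sampled at each of 8 Zeitgeber times (ZT, hours after lights on), 3 h apart, from ZT0 to ZT21. No treatment or transgene is given in the labels, and all mice lived under a light:dark schedule. At every time point the 4 mice were ranked by Acly CPM, the gene's count scaled to the total of its library, and the 2 highest formed the high-Acly group and the 2 lowest the low-Acly group, which gave 16 against 16 of the 32 mice. The groups were thus chosen by a measured value and not by the design, and what follows describes which other genes differed between mice that had been killed at the same time of day. All genes of a mouse were read from the same library, so Acly and the genes compared with it share that library's RNA, depth and tissue makeup.

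Acetyl-CoA made by ATP citrate lyase is the carbon source of de novo lipogenesis. Citrate leaves the mitochondrion through the carrier encoded by Slc25a1, acetyl-CoA carboxylase turns acetyl-CoA into malonyl-CoA, fatty acid synthase assembles palmitate from it with NADPH, and elongases and desaturases finish the chain. The same cytosolic acetyl-CoA feeds the mevalonate route to cholesterol. Transcription of these enzymes is known to be driven by SREBP-1c, which insulin induces, and by ChREBP, which responds to glucose. Brown fat is known for a high rate of lipogenesis beside its use of fatty acids for heat.

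Acly (chr11:100476353-100528000, minus strand, GRCm38) ranged from 1726 to 7619 CPM in the high-Acly mice, with a median of 4620, and from 687 to 5387 CPM in the low-Acly mice, with a median of 2973. The groups overlapped across the day, and 9 of the 16 low-Acly mice lay above the lowest high-Acly mouse over the 8 time points. Of the variance of log2 Acly over all mice, 50.9% lay within time points. The top mouse exceeded the bottom mouse of its time point between 1.5-fold at ZT21 and 6.72-fold at ZT6. The lower high-Acly mouse and the upper low-Acly mouse, which lie on either side of the split, were close at ZT3 (3314 and 3162 CPM) and at ZT12 (1973 and 1704 CPM) and far apart at ZT6 (5889 and 2904 CPM) and ZT18 (7356 and 4631 CPM). These values defined the groups and were not tested.

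**Figure D1:**
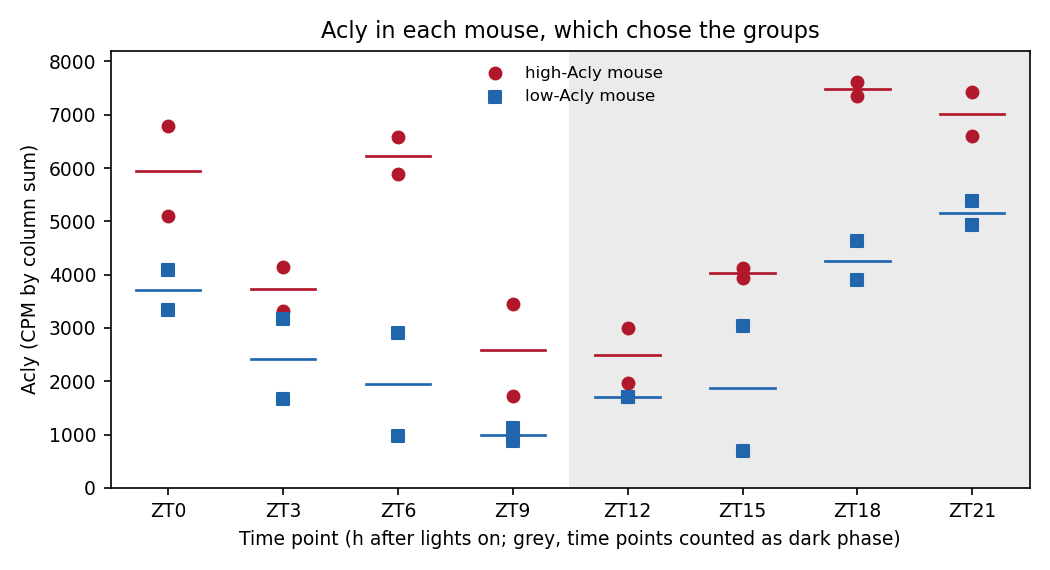
Acly in CPM by column sum (y axis) for each of the 4 mice at every time point (x axis, hours after lights on), with circles for the high-Acly and squares for the low-Acly mice and a bar at the mean of each pair. The mice on either side of the split were nearest at ZT3, where they differed by 152 CPM, and the lowest mouse of all was the bottom mouse of ZT15 at 687 CPM.

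Total counts ran from 16300770 to 18254659 per library. The brown adipocyte markers (Ucp1, Cidea, Adipoq, Plin1, Fabp4, Pparg and Cox8b) summed to between 10897 and 15706 CPM in the high-Acly and 11158 and 15855 CPM in the low-Acly libraries, and none was at 0 in all libraries of a group. Skeletal muscle markers were detected too, and the 15 libraries in which they summed to over 1000 CPM are called muscle-rich below. Where leaving them out moved the difference of a gene that passed and is named by rule by over 1.5 times, that value is given at the gene or with the muscle markers. It comes from a set of 17 libraries in which no gene passed by edgeR. No low-Acly library of ZT12 to ZT21 is in that set. Mice are compared within time points, so the value rests on ZT0 to ZT9, and loss of muscle and loss of the later time points cannot be told apart. In bulk tissue, fewer cells of a type and less RNA per cell cannot be told apart. Whether mice shared a cage or a litter is not given in the sources used here, and p-values measure the spread between these mice.

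Of 15504 genes tested with edgeR's quasi-likelihood test with time point as a block, 1625 passed a Benjamini-Hochberg (BH) adjusted p of 0.05, which is 10.5% of the genes tested. In the high-Acly mice 913 were higher (5.89%) and 712 were lower (4.59%). Most of these differences were small, with a median of 1.18-fold among the genes that passed, and 127 genes exceeded 2-fold, of which 25 were higher and 102 lower. The difference had the same direction at all 8 time points for 751 of the genes that passed and for 1007 of all genes tested. Scaling by library size alone gave 458 higher and 2289 lower genes and shifted the median log2 difference of all genes from -0.01 to -0.08. A test against a 1.5-fold change passed no gene in edgeR (glmTreat), with 335 at an unadjusted p under 0.05. Leaving out a single library gave between 1031 genes (without ZT15 replicate 1, the low-Acly mouse with the lowest Acly) and 2097, with 1033 without ZT12 replicate 1, and leaving out a time point gave 837 without ZT9, 994 without ZT15, 884 without ZT18 and 881 without ZT21. Below, levels are CPM after TMM scaling, the scaling of edgeR, and differences are log2 fold changes of high-Acly over low-Acly mice with their standard error (SE).

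Enzymes of fatty acid synthesis were higher in high-Acly mice in 14 of 16 members tested and lower in none, against a background of 5.89% of all genes that were higher. The median log2 difference over the list was 0.68, where that of all genes was -0.01. The route began with the citrate carrier Slc25a1, which ranged from 436 to 1050 CPM (median 700.0) in the high-Acly and from 178 to 671 CPM (median 403) in the low-Acly mice. Across the day the groups overlapped, but within every one of the 8 time points both high-Acly mice lay above both low-Acly mice. Its log2 difference was 0.75 ± 0.11 (adjusted p = 0.000944, edgeR quasi-likelihood test).

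Fatty acid synthase itself (Fasn) ranged from 15991 to 36265 CPM (median 27394) in high-Acly mice and from 2931 to 24417 CPM (median 17170) in low-Acly mice. It was 1.74-fold higher in the former (log2 difference 0.80 ± 0.19, adjusted p = 0.0109, edgeR). Acaca, the acetyl-CoA carboxylase of the cytosol, ran from 1332 to 3972 CPM (median 2876) against 397 to 2386 CPM (median 1742). The groups overlapped over the day, and within time points both high-Acly mice exceeded both low-Acly mice at 7 of 8 for either gene, with ZT12 as the exception. The log2 difference of Acaca was 0.80 ± 0.16 (adjusted p = 0.00348, edgeR), and that of Acacb, the carboxylase of the mitochondrial surface, was 0.49 ± 0.08 (adjusted p = 0.00164).

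Acetyl-CoA can also be made from acetate by the product of Acss2, which ranged from 439 to 1325 CPM (median 899) and from 187 to 1177 CPM (median 521) in the high and the low group, a log2 difference of 0.81 ± 0.15 (adjusted p = 0.00279, edgeR). Me1, the malic enzyme that returns carbon to pyruvate and yields NADPH, ran from 338 to 1444 CPM (median 874) against 213 to 704 CPM (median 473) and was 1.83-fold higher in high-Acly mice, again with no overlap within any time point. Among the enzymes that lengthen and desaturate the chain, Elovl6 (0.81 ± 0.14), Scd2 (0.85 ± 0.16) and Scd1 (0.47 ± 0.14, adjusted p = 0.0284, edgeR) were higher as well. Scd1, the stearoyl-CoA desaturase, lay apart at 4 of 8 time points, at 42964 to 74806 CPM (median 60530) in high-Acly and 14810 to 66330 CPM (median 46897) in low-Acly mice.

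Elovl3, an elongase of very long chains known for its induction in cold-exposed brown fat, had the largest difference of the list, 1.70 ± 0.39 on the log2 scale (adjusted p = 0.00944, edgeR). It ranged from 4.76 to 69.4 CPM (median 28.4) in high-Acly and from 0.42 to 30.5 CPM (median 8.13) in low-Acly mice, and the groups overlapped widely. At ZT9 the high-Acly mice had 64.1 and 44.1 CPM and the low-Acly mice 3.81 and 0.941 CPM. At ZT3 the order was not kept, with 8.94 and 4.76 CPM against 12.0 and 5.61 CPM. The 2 members that did not pass were Fads1 and Fads2, the desaturases of polyunsaturated fatty acids, with values of -0.10 (adjusted p = 0.538) and -0.24 (adjusted p = 0.0609, edgeR).

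**Figure D2:**
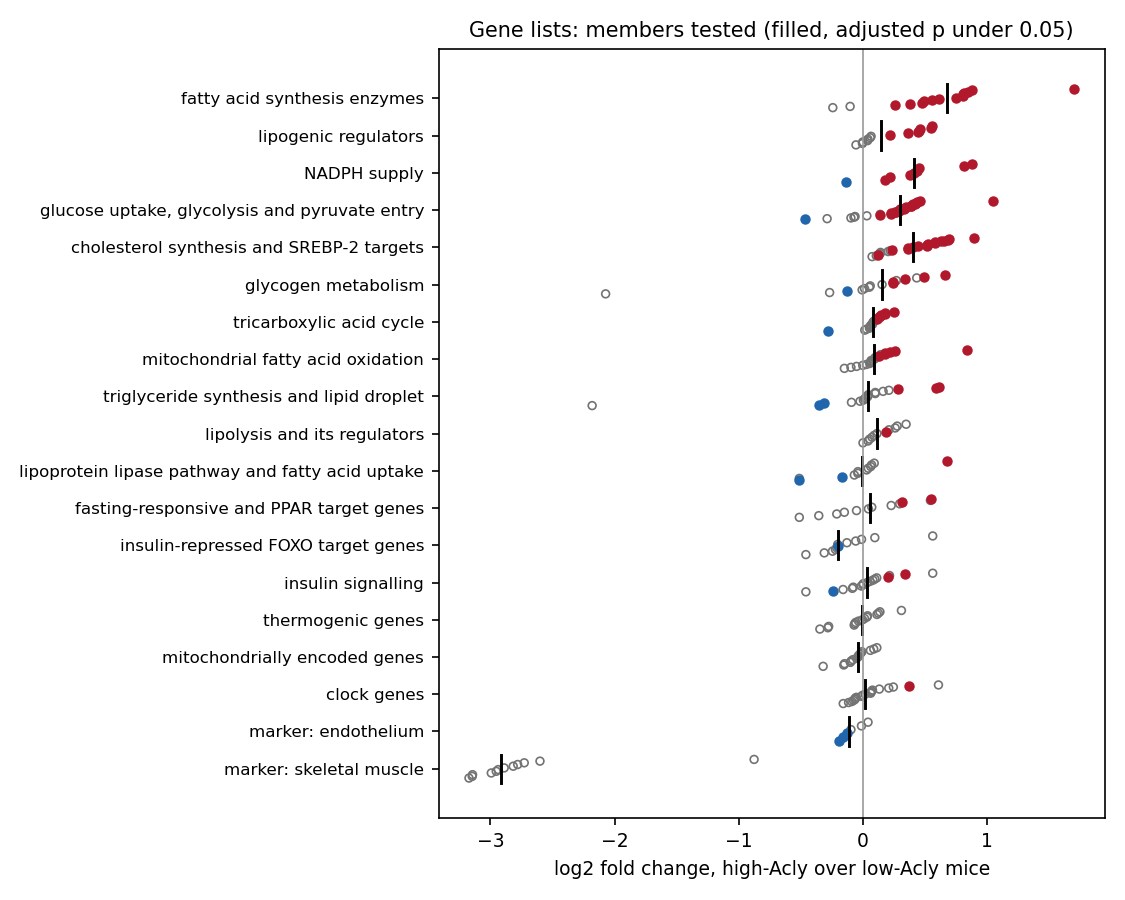
Log2 fold change of high-Acly over low-Acly mice (x axis) for each tested member of 19 gene lists (y axis), with filled points for members past an adjusted p of 0.05 (red higher, blue lower), open points for the others and a black bar at the list's median. The median of fatty acid synthesis lies at 0.68 and that of the thermogenic genes at -0.01, while the open points of skeletal muscle lie around a median of -2.91.

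The promoters of 4 genes at the start of this route are printed because their transcripts moved together with Acly. They span 250 bases before to 50 after the start site on GRCm38.p6 in RefSeq, read 5′ to 3′ on the gene's strand: Slc25a1 (chr16:17928170-17928469, minus strand), Acly (chr11:100527951-100528250, minus strand), Acss2 (chr2:155517793-155518092, plus strand) and Fasn (chr11:120824498-120824797, minus strand). Capitals mark every match, on either strand, to CCAAT (bound by NF-Y), GGGCGG (bound by Sp1-type factors), CACGTG (an E-box) or TCACNCCAC (a sterol response element), and of these matches only a pair of CCAAT matches in Fasn, on opposite strands, overlap.
Slc25a1: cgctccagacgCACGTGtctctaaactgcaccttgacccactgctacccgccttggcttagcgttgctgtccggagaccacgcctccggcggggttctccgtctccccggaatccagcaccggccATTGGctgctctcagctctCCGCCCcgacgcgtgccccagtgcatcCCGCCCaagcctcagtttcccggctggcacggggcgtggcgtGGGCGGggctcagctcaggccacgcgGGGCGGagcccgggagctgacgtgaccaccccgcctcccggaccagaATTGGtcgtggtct
Acly: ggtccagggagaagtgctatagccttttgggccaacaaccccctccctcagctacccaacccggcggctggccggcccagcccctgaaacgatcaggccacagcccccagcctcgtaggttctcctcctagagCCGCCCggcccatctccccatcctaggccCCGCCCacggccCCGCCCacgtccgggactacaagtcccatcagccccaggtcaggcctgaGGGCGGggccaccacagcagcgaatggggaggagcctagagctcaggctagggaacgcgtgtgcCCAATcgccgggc
Acss2: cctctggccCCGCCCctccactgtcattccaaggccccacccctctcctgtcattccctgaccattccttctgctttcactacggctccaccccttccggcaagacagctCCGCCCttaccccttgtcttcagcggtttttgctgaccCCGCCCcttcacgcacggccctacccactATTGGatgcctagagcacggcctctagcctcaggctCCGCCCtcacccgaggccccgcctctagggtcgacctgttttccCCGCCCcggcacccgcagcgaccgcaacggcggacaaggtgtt
Fasn: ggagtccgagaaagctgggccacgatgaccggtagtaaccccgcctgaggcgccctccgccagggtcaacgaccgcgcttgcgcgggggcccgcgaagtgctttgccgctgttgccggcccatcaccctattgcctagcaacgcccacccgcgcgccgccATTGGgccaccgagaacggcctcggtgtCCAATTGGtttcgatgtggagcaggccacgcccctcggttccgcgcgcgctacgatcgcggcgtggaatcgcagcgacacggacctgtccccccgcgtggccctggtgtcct
Each of the 4 windows held CCAAT, with 3 matches in Fasn, 2 in Slc25a1 and 1 each in Acly and Acss2. GGGCGG was found in 3 of them, with 5 matches in Acss2 and 4 each in Acly and Slc25a1. CACGTG was found in Slc25a1 alone among these 4, and TCACNCCAC in none. The higher members of the fatty acid synthesis list had 12 promoters in the table, from 11 genes, and of these promoters 8 held CCAAT (66.7%), 5 GGGCGG (41.7%), 2 CACGTG (16.7%) and none TCACNCCAC. Over all 32851 promoters of that table the shares were 37.4% for CCAAT, 35.7% for GGGCGG, 7.15% for CACGTG and 1.24% for TCACNCCAC. A match is a run of letters and was not tested as a binding site.

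Regulators of lipogenesis were higher in 7 of 14 members tested and lower in none, beside 5.89% and 4.59% of all genes, with a median of 0.14. Srebf1, which encodes SREBP-1, ranged from 413 to 985 CPM (median 580.3) in high-Acly and from 231 to 944 CPM (median 504) in low-Acly mice, a log2 difference of 0.36 ± 0.09 (adjusted p = 0.0154, edgeR). Mlxipl, which encodes ChREBP, differed by 0.45 ± 0.11 (adjusted p = 0.0108), with 343 to 1002 CPM (median 690.1) against 279 to 940.1 CPM (median 449). Thrsp, or Spot 14, a lipogenic protein induced by thyroid hormone and glucose, ranged from 2209 to 4553 CPM (median 3389) against 1238 to 3934 CPM (median 2303). Both high-Acly mice exceeded both low-Acly mice for Thrsp at 7 of 8 time points, for Srebf1 at 6 and for Mlxipl at 4, and for Srebf1 the order was turned at 1. The log2 difference of Thrsp was 0.55 ± 0.10 and that of Insig1, which holds SREBP in the endoplasmic reticulum and is itself an SREBP target, 0.55 ± 0.12 (adjusted p = 0.00214 and 0.00706, edgeR). Mid1ip1, a partner of Spot 14, Mlx, the partner of ChREBP, and the ChREBP and SREBP-1 target Pnpla3 were the other members that passed, at 0.45, 0.22 and 0.44. The liver X receptor gene Nr1h3 (0.06), Scap (0.06) and the upstream factors Usf1 (-0.01) and Usf2 (0.04) did not pass.

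Of 9 genes that supply NADPH for lipogenesis, 8 were higher and 1 was lower, where 5.89% and 4.59% of all genes were so. Pgd, the second dehydrogenase of the pentose phosphate pathway, ran from 231 to 864 CPM (median 516) in high-Acly and from 117 to 537 CPM (median 310.0) in low-Acly mice, and both high-Acly mice lay above both low-Acly mice at 7 of 8 time points. Its log2 difference was 0.81 ± 0.13 (adjusted p = 0.00125, edgeR), while that of G6pdx, the first and rate-limiting dehydrogenase, was 0.45 ± 0.08 (adjusted p = 0.00164). The enzymes that return pentoses to glycolysis were higher too, with Rpia at 0.43, Tkt at 0.41 and Taldo1 at 0.38, though Rpia was at 0.08 without the muscle-rich libraries. The lactonase Pgls was the lower member at -0.14 (adjusted p = 0.0301, edgeR).

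In glucose uptake, glycolysis and pyruvate entry, 20 of 27 members were higher and 1 was lower, against 5.89% and 4.59% over all genes. Slc2a4, the insulin-responsive transporter GLUT4, ranged from 404 to 828 CPM (median 550.5) in high-Acly and from 269.8 to 666 CPM (median 455) in low-Acly mice and differed by 0.33 ± 0.07 (adjusted p = 0.00758, edgeR). The groups overlapped across the day, and the difference was positive at all 8 time points. Hexokinase 2 (Hk2) differed by 0.43 ± 0.13 (adjusted p = 0.0388), and this call was lost with the muscle marker sum as a covariate (adjusted p = 0.0906) and when the like split by Angptl4 was added (adjusted p = 0.0746, edgeR).

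Further along the pathway, Pfkl (0.46), Aldoa (0.34), Gapdh (0.42), the pyruvate carriers Mpc1 (0.39) and Mpc2 (0.34) and the pyruvate dehydrogenase subunit Pdhb (0.43) were higher. The lower member was Pfkm, the phosphofructokinase of muscle, at -0.47 ± 0.12 (adjusted p = 0.0171), whose difference was -0.15 with the muscle marker sum as a covariate (adjusted p = 0.195, edgeR).

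Genes of cholesterol synthesis and other SREBP-2 targets were higher in 16 of 23 members and lower in none, beside 5.89% and 4.59% of all genes. All 23 had a value above 0 (median 0.40). Sqle, the squalene epoxidase that performs the first oxygenation of the route, ranged from 9.21 to 49.7 CPM (median 19.6) in high-Acly and from 5.56 to 27.8 CPM (median 13.1) in low-Acly mice. Its groups overlapped over the day, but within time points they did so at ZT0 alone, and its log2 difference was 0.89 ± 0.12 (adjusted p = 0.000842, edgeR). Idi1, the isopentenyl diphosphate isomerase, lay at 4.66 to 12.9 CPM (median 7.69) against 2.79 to 7.59 CPM (median 4.76) with no overlap within any time point (0.65 ± 0.08, adjusted p = 0.000409). Mvd (0.69), Nsdhl (0.68) and Fdps (0.62) were higher too. Without the muscle-rich libraries the differences of Sqle and Mvd were 0.50 and 0.24 and the median of the list 0.24. The synthase Hmgcs1 had a value of 0.11 and did not pass (adjusted p = 0.407, edgeR).

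Of 15 glycogen genes 5 were higher and 1 was lower, beside 5.89% and 4.59% of all genes. Pygl, the liver form of glycogen phosphorylase, followed Acly closely, at 582 to 1427 CPM (median 1027) in high-Acly and 234 to 971 CPM (median 662) in low-Acly mice. Both high-Acly mice lay above both low-Acly mice at all 8 time points, and the log2 difference was 0.66 ± 0.11 (adjusted p = 0.00125, edgeR). Ppp1r3b, which targets protein phosphatase 1 to glycogen, differed by 0.49 ± 0.13 and the branching enzyme Gbe1 by 0.34 ± 0.07. The glycogen synthase Gys2 had a value of 0.43 ± 0.14 and missed the threshold (adjusted p = 0.0506, edgeR). Pygm, the phosphorylase of muscle, had a value of -2.07 and did not pass (adjusted p = 0.0857).

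Among the mitochondrial routes, 7 of 20 genes of the tricarboxylic acid cycle were higher and 1 lower, and 6 of 20 of fatty acid oxidation were higher and none lower, beside 5.89% higher and 4.59% lower over all genes. With the muscle marker sum as a covariate the tricarboxylic acid cycle had 4 higher, and with log2 Acly as a continuous covariate 14. Of all 15504 genes, 825 and 1643 were higher in these fits. Between the high and low groups the medians of both lists were 0.08 and 0.09. Pcx, the pyruvate carboxylase that refills oxaloacetate, was higher by 0.25 ± 0.04 (adjusted p = 0.00164, edgeR), from 963 to 1189 CPM (median 1048) against 689 to 1037 CPM (median 915), and the pairs did not overlap at any time point. The mitochondrial isocitrate dehydrogenase Idh2 was lower, at -0.28 (adjusted p = 0.0209). In fatty acid oxidation Acsl5, an acyl-CoA synthetase, stood out at 0.83 ± 0.16 (adjusted p = 0.00257, edgeR), with 213 to 659.7 CPM (median 379) in high-Acly and 54.2 to 447 CPM (median 218) in low-Acly mice, while the member with the next largest difference, Cpt2, differed by 0.26 ± 0.06.

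The storage and release of triglycerides was covered by 2 lists, to be read against the 5.89% higher and 4.59% lower over all genes. In triglyceride synthesis and lipid droplets 3 of 18 were higher, namely Agpat2 (0.61 ± 0.15), an acyltransferase, the droplet coat protein Plin2 (0.59 ± 0.13) and the phosphatidate phosphatase Lpin1 (0.28), and 2 were lower, Cideb (-0.36) and Gpat3 (-0.32). Dgat2, which adds the last acyl chain, lay at 1370 to 3255 CPM (median 1907) against 1495 to 2973 CPM (median 2187), a difference of -0.09 ± 0.06 (adjusted p = 0.349, edgeR). Of 11 lipolysis genes, Lipe, the hormone-sensitive lipase, was higher (0.18 ± 0.05) and the lipase gene Pnpla2 had a value of 0.04 ± 0.03 (adjusted p = 0.361).

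Uptake of fatty acids from lipoproteins, for which lipoprotein lipase (LPL) frees them at the vessel wall, showed 1 higher and 2 lower genes of 12, where 5.89% and 4.59% of all genes did so. Lpl ranged from 2615 to 5629 CPM (median 3309) in high-Acly and from 2501 to 5047 CPM (median 3564) in low-Acly mice and differed by 0.03 ± 0.06 (adjusted p = 0.81, edgeR). The higher gene was Angptl8, an insulin-induced modulator of LPL, at 20.9 to 129 CPM (median 41.0) against 14.0 to 156 CPM (median 23.5) (0.68 ± 0.19, adjusted p = 0.0264), with a difference of 0.25 without the muscle-rich libraries (adjusted p = 0.679, edgeR). The lower ones were Fabp3, a fatty acid-binding protein, at -0.52 ± 0.12 and Gpihbp1, which carries LPL across the endothelium, at -0.17 ± 0.05 (adjusted p = 0.00906 and 0.0239, edgeR). With the muscle marker sum as a covariate they were lower by the same test, at -0.65 and -0.23, and endothelial markers, given below, were lower as well.

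Angptl4, the inhibitor of LPL that fasting induces, had a value of -0.51 ± 0.21 and did not pass (adjusted p = 0.102, edgeR). It ranged from 63.8 to 554 CPM (median 172) in high-Acly and from 54.8 to 521 CPM (median 320.4) in low-Acly mice, and 6 of the 16 high-Acly mice were also among the 16 that a like ranking by Angptl4 put in its high group. At ZT0 the high-Acly mice had 158 and 112 CPM and the low-Acly mice 490.5 and 269.8 CPM, and at ZT18 165 and 118 against 422 and 287. At ZT9 the order was the other way round, with 321 and 162 CPM against 144 and 139 CPM. On lane 4 alone, which held ZT18 and ZT21, the difference of Angptl4 was -0.97 (adjusted p = 0.0254), against -0.60 on lane 2 and -0.11 on lane 3 (adjusted p = 0.46 and 0.889, edgeR), and the difference between lanes was not tested. Without the muscle-rich libraries, and so at ZT0 to ZT9 alone, the value of Angptl4 was -0.12 (adjusted p = 0.926, edgeR). With all libraries it was -0.25 in the light and -0.76 in the dark, which did not differ by the interaction test (adjusted p = 0.836, edgeR). With log2 Acly as a continuous covariate it was -0.48 per doubling of Acly and passed (adjusted p = 0.0148, edgeR). Adding the split by Angptl4 to the model left 1160 genes, of which 1113 were shared with the same direction.

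**Figure D3:**
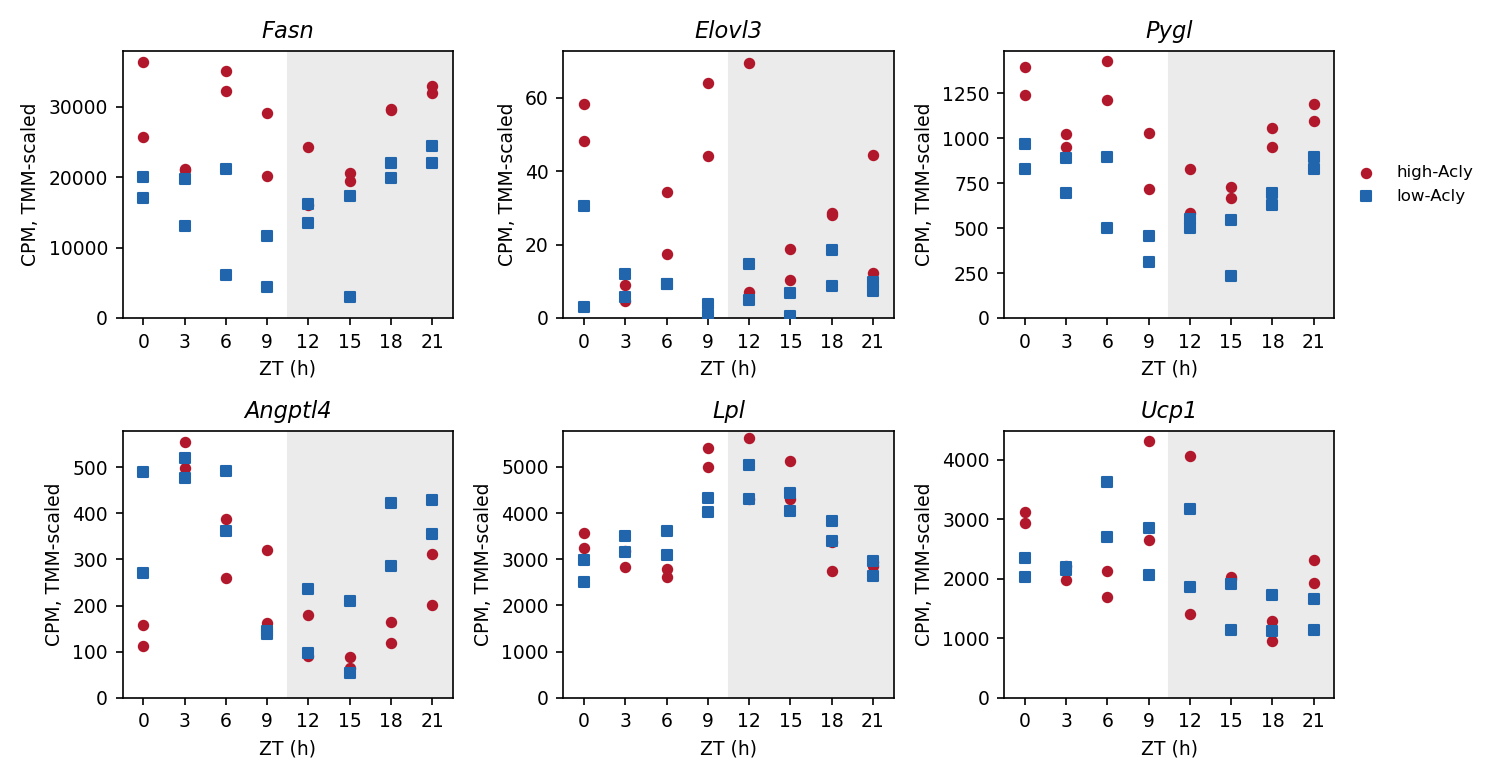
CPM after TMM scaling (y axes, from 0) of 6 genes in every mouse by Zeitgeber time (x axes), with circles for the high-Acly and squares for the low-Acly mice and grey behind the time points counted as dark phase. Fasn and Pygl are separated within nearly every time point, whereas Lpl and Ucp1 are mixed, with log2 differences of 0.03 and 0.12.

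Fasting-responsive and PPAR target genes gave 2 higher of 12 tested, among them the uncoupling protein gene Ucp3 (0.55 ± 0.15), and none lower, where 5.89% and 4.59% of all genes did so. Pck1, the phosphoenolpyruvate carboxykinase of glyceroneogenesis, had a value of -0.36 ± 0.15 and Pdk4, which blocks pyruvate dehydrogenase, one of -0.21 ± 0.17 (adjusted p = 0.125 and 0.454, edgeR). Without the muscle-rich libraries, and so at ZT0 to ZT9 alone, their values were 0.04 and 0.15. With all libraries they were -0.19 and 0.14 in the light and -0.52 and -0.54 in the dark. Among 12 genes that insulin represses through FOXO, Foxo1 was lower (-0.21 ± 0.05, adjusted p = 0.0168), and the median of the list was -0.20, or -0.01 without the muscle-rich libraries. Irs2, the insulin receptor substrate of that list, ranged from 6.98 to 303 CPM (median 17.1) in high-Acly and from 10.3 to 200.5 CPM (median 28.2) in low-Acly mice and did not pass (-0.46 ± 0.35, adjusted p = 0.42, edgeR). Its value was 0.16 without the muscle-rich libraries, and 0.03 in the light and -1.02 in the dark with all libraries. In insulin signalling 2 of 17 were higher and 1 lower, the last being Grb10, an inhibitor of the receptor (-0.24 ± 0.06).

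Genes of heat production were covered by 3 lists. None of 15 thermogenic genes, 15 mitochondrially encoded genes or 7 brown adipocyte markers passed in either direction by edgeR, with medians of -0.01, -0.04 and 0.04. Ucp1, the uncoupling protein, lay at 955 to 4318 CPM (median 2081) in high-Acly and 1126 to 3622 CPM (median 2042) in low-Acly mice, a difference of 0.12 ± 0.14 (adjusted p = 0.616, edgeR), and its mean log2 CPM was higher at 4 time points and lower at 4. Of the 16 high-Acly mice 9 were in the high group of a like ranking by Ucp1. Among 19 clock genes 1 was higher and none was lower. Glucocorticoid-responsive and immediate early genes passed in none of 12 each, heat-shock genes in 3 of 12 (Hsp90aa1, Hspa4 and Hspd1, all higher) and ATF4 targets in 2 of 12 (Psph and Atf5, both higher). Over all genes 5.89% were higher and 4.59% lower, and nothing is read from counts of this size.

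**Figure D4:**
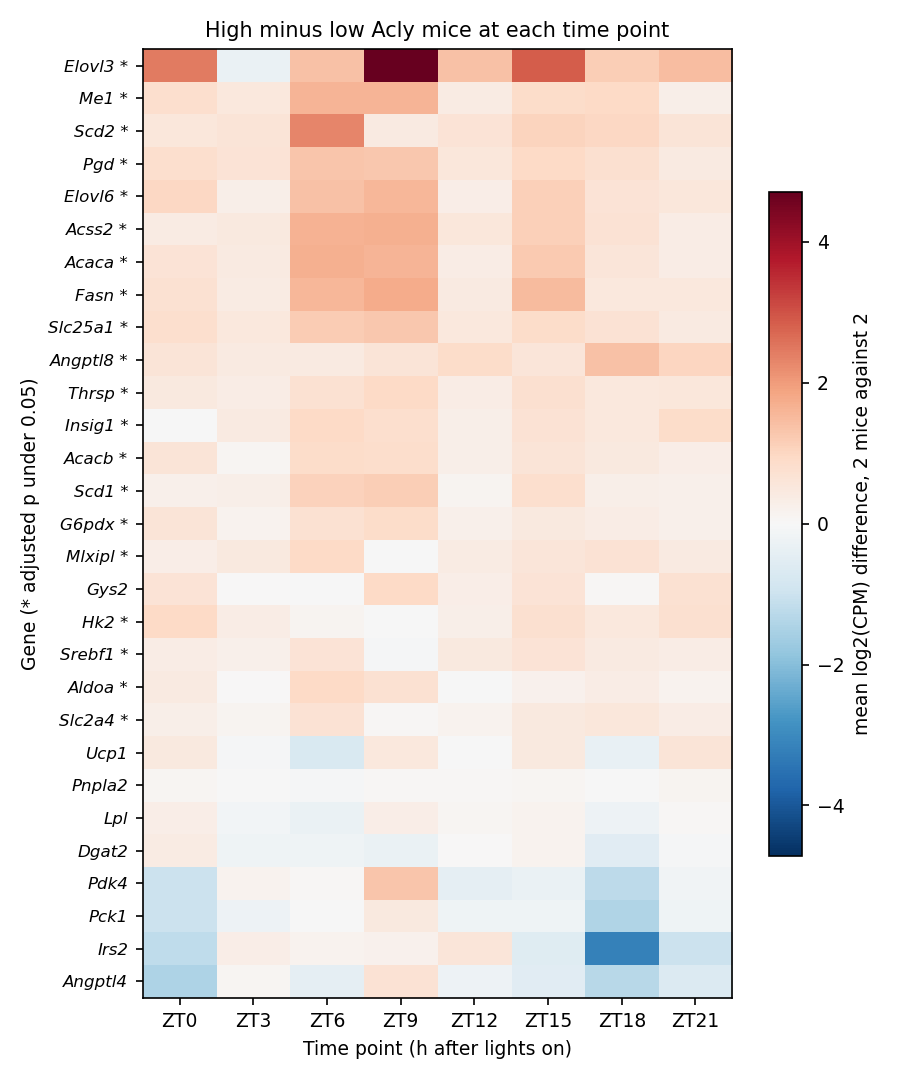
Difference of mean log2 CPM between the 2 high-Acly and the 2 low-Acly mice (colour, red higher) for 29 genes (rows, ordered by their log2 fold change, with an asterisk where the adjusted p was under 0.05) at 8 time points (columns). The row of Fasn is deepest at ZT6, ZT9 and ZT15, where it differed by 1.57, 1.76 and 1.49, Elovl3 at ZT9 is the highest cell at 4.71 and Irs2 at ZT18 the lowest at -3.19.

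Of 30 genes of lipid and glucose metabolism chosen for this comparison, 29 of which are in the plot by time point, 21 passed and all of these were higher. At all 8 time points 15 of them were higher, beside 751 of all 1625 genes that passed with 1 direction at every time point, and the exceptions were Elovl3, Srebf1, Mlxipl, Insig1, Hk2 and Aldoa, each higher at 7. The size varied with the time point. Fasn was 3.07-fold higher at ZT9 (means 24601 and 8019 CPM) and 1.29-fold at ZT3 (means 21045 and 16351 CPM). At ZT15 a single mouse was far below the others, with 2931 CPM of Fasn against 17314 in the other low-Acly mouse, and this mouse (replicate 1) also had the lowest Acly and the highest skeletal muscle marker sum (8582 CPM).

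Libraries of ZT0 to ZT6, ZT9 to ZT15 and ZT18 to ZT21 were run on 3 separate lanes, so the comparison was repeated within each. All 21 genes were higher on every lane, and Fasn differed by 0.80, 1.02 and 0.48 on lanes 2, 3 and 4. Over all genes edgeR made no call on lane 2, 8 on lane 3, all of them lower, and 538 on lane 4, with 1477, 3025 and 2251 genes at an unadjusted p under 0.05. On lane 4, 18 of the 21 genes passed.

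Whether the difference depended on the phase was tested as an interaction, with ZT0 to ZT9 as light and ZT12 to ZT21 as dark. No gene passed (0%) in edgeR's quasi-likelihood test, with 1168 at an unadjusted p under 0.05, and none in DESeq2, with 1111. Without a filter on low counts 605 genes passed, and without ZT3 replicate 2 179 did. Fasn differed by 1.01 in the light and 0.60 in the dark and Me1 by 1.14 and 0.62. The dark-minus-light differences of these genes were -0.41 ± 0.38 and -0.52 ± 0.26 (SE; edgeR, adjusted p = 0.862 and 0.679).

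Beyond these 30 genes, and among those that passed, averaged 1 CPM or more and kept their direction at 7 or more time points, the largest positive differences were those of Gm32468 (1.55 ± 0.39), Kcng4 (1.34 ± 0.26), Slc2a5 (1.21 ± 0.25), Atp4b (1.14 ± 0.27), Ttc25 (1.11 ± 0.17), Adcy10 (1.11 ± 0.21), 2310069B03Rik (1.10 ± 0.19), Dixdc1 (1.04 ± 0.21), Bsn (1.04 ± 0.26) and Gm47818 (1.04 ± 0.24). Slc2a5, the fructose transporter GLUT5, ranged from 10.4 to 83.3 CPM (median 42.8) in high-Acly and from 2.79 to 42.2 CPM (median 21.3) in low-Acly mice (adjusted p = 0.00481, edgeR). Ttc25 ran from 8.58 to 49.5 CPM (median 25.1) against 4.36 to 23.9 CPM (median 12.1), with the groups apart at 7 of 8 time points (adjusted p = 0.000944). Dixdc1, a DIX domain protein linked to Wnt signalling, lay at 6.95 to 61.3 CPM (median 32.2) against 4.83 to 52.7 CPM (median 12.4) (adjusted p = 0.00432, edgeR).

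Likeness to Acly was also described by Pearson's r of log2 CPM after the mean of each time point was removed, over 32 mice that share libraries and with no test. The genes most like Acly were Slc2a5 (r = 0.977), Pygl (0.969), Pgd (0.964), Acaca (0.964) and Acss2 (0.961). The most opposed were Mpp3 (-0.879), Rgcc (-0.865), Blcap (-0.847), Kansl1l (-0.843) and Snx21 (-0.84). Rgcc, a regulator of the cell cycle, ranged from 77.7 to 159 CPM (median 101) in high-Acly and from 102 to 169.8 CPM (median 137) in low-Acly mice and was lower, at -0.40 (adjusted p = 0.000944, edgeR).

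The largest negative differences by the same rule were Csrp3 (-2.71 ± 0.77), Lrrc30 (-2.64 ± 0.81), Hspb7 (-2.51 ± 0.68), Actn2 (-2.47 ± 0.65), Yipf7 (-2.43 ± 0.72), Klhl40 (-2.41 ± 0.79), Alpk2 (-2.40 ± 0.77), Nctc1 (-2.40 ± 0.77), Kcnc1 (-2.34 ± 0.71) and Lrrc2 (-2.12 ± 0.67). Csrp3, Actn2 and Klhl40 are known as genes of striated muscle. Apart from Hspb7 and Actn2, these genes averaged under 1 CPM in high-Acly mice, from 0.32 CPM for Yipf7 to 0.76 CPM for Lrrc30. They met the rule of 1 CPM only through the low-Acly mice, and the size of their differences rests on values near the floor. Actn2, the alpha-actinin of the sarcomere, ranged from 0.496 to 22.3 CPM (median 1.71) in high-Acly and from 1.36 to 100.2 CPM (median 21.7) in low-Acly mice, and the groups overlapped at 4 time points (adjusted p = 0.0184, edgeR). With the muscle marker sum as a covariate, 2 of these 10 genes still passed (Hspb7, -0.68, and Actn2, -0.87), while all 10 of the largest positive differences did. Without the muscle-rich libraries, the values of Bsn (-0.075) and Csrp3 (0.91) had the other sign.

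Skeletal muscle markers (Acta1, Myh1, Myh2, Myh4, Tnnt3, Tnni2, Tnnc2, Ckm, Mylpf, Myl1, Atp2a1 and Pvalb) all had values below 0, with a median of -2.91, and none of the 12 passed on its own by edgeR. None was at 0 in all libraries of either group. Their sum, in CPM by column sum, ran from 54.3 to 5244 CPM (median 117) in high-Acly and from 59.1 to 8582 CPM (median 2440) in low-Acly libraries. The sum exceeded 1000 CPM in 4 of the 16 high-Acly and 11 of the 16 low-Acly libraries. The high-minus-low difference of the sum was -2.42 on the log2 scale, with lower values in high-Acly mice at 7 of 8 time points (exact permutation within time points, two-sided, p = 0.0135, BH-adjusted over 11 measures 0.0493). That call was lost in 22 of the 32 runs that left out 1 library and, after TMM scaling, at an adjusted p of 0.0592.

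**Figure D5:**
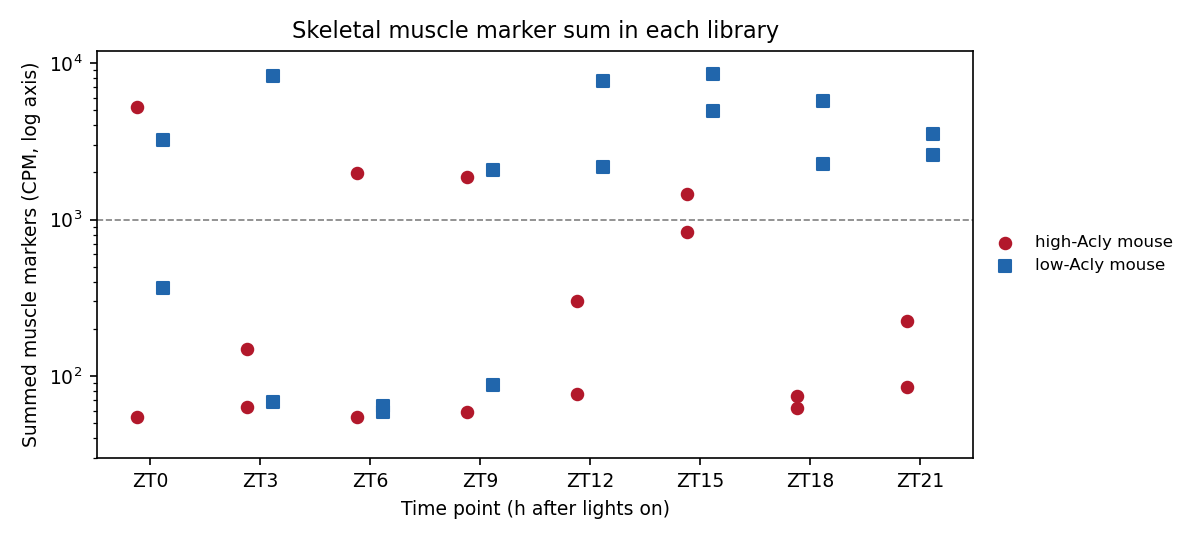
Summed CPM of 12 skeletal muscle markers (y axis, log scale) in each library by time point (x axis), with circles for high-Acly and squares for low-Acly mice and a dashed line at 1000 CPM. At ZT12, ZT15, ZT18 and ZT21 every low-Acly library lies above the line, while at ZT6 both low-Acly libraries lie near 60 CPM (59.1 and 64.1).

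The lipogenic difference was measured again with muscle taken into account. With the muscle marker sum as a covariate, 1475 of 15504 genes passed, 825 higher and 650 lower, and 1089 of them were shared with the same direction. Fatty acid synthesis had 14 of 16 higher members with a median of 0.77, cholesterol synthesis 16 of 23, the NADPH list 8 of 9 and the tricarboxylic acid cycle 4 of 20 higher. Without the 15 libraries above 1000 CPM, 17 remained (12 high-Acly and 5 low-Acly), and no gene passed in edgeR, with 1338 at an unadjusted p under 0.05. Both groups were present at 4 time points, ZT0 to ZT9, since no low-Acly library of ZT12 to ZT21 was left. The values of this set thus compare the groups in the light phase alone, and loss of muscle and loss of the dark phase cannot be told apart in them. The median of fatty acid synthesis was then 0.66, that of cholesterol synthesis 0.24, Fasn differed by 0.94 and Slc25a1 by 0.73, and the 21 genes named above all had values above 0. Of the 89 named genes that passed, 18 were over 1.5 times smaller there, of which 2 had the other sign, and 4 were over 1.5 times larger. Besides those given above, these included Slc2a4 (0.18), Hk2 (0.14), Mid1ip1 (0.25), Ppp1r3b (0.28), Pfkm (-0.09), Dixdc1 (0.59), Lrrc30 (-1.63), Hspb7 (-0.30), Actn2 (-0.94), Tek (-0.08), Cideb (-0.67), Gpihbp1 (-0.26), Hsp90aa1 (0.65) and Atf5 (0.41), beside Pik3cb (0.09). The bottom mice of ZT6 and ZT9, with 6034 and 4413 CPM of Fasn, had muscle sums of 64.1 and 87.6 CPM, but they stood apart in other measures. The ZT6 mouse (replicate 4) had the highest endothelial (1047 CPM) and brown adipocyte sums (15855 CPM) of all libraries and a mitochondrially encoded share of 27.9%. The ZT9 mouse (replicate 3) had the highest sums of lymphoid (31.4 CPM), macrophage (245 CPM), stroma (1310 CPM) and erythroid markers (1213 CPM) and the highest mitochondrially encoded share (28.2%), and it was left out in 1 alternative for its macrophage sum, where 1264 genes passed and 1199 of them were shared with the same direction. The part of these measures in the low Fasn of both mice was not tested.

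Endothelial markers were lower in 3 of 6 members (Esam -0.20, Cdh5 -0.16 and Tek -0.13), where 4.59% of all genes were lower. The sum of the 6 markers ran from 628 to 955 CPM in high-Acly against 689 to 1047 CPM in low-Acly libraries. The difference of the sum was -0.16 on the log2 scale (exact permutation p = 0.000735, adjusted p = 0.00808) and -0.10 after TMM scaling (adjusted p = 0.0411). The share of counts from mitochondrially encoded genes ran from 18.5% to 25.3% (median 22.6%) in high-Acly and from 20.5% to 28.2% (median 24.0%) in low-Acly libraries (exact permutation p = 0.00324, adjusted p = 0.0178). This call was lost without ZT0 replicate 4, at an adjusted p of 0.0593. Leaving these genes out of the table gave 1613 calls, 1582 of them shared with the same direction. The sums of white adipocyte, erythroid, lymphoid, macrophage, stroma and Schwann cell markers and the total counts did not pass, with adjusted p from 0.0672 to 0.795. Other than these recounts, the part of these measures in the gene differences was not tested.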

How the data were processed

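RNA was sequenced from 1 iBAT library per mouse as 100-base paired-end reads from a stranded library. The authors aligned and counted reads per gene, and the deposited table holds raw counts for 32 libraries and 50686 genes. The submitters' processing notes name GSNAP, HTSeq 0.6.1 and mm10, and whether counting used the strand is not given in the sources used here, so reads of overlapping and antisense genes may be shared. Symbols were taken from the GENCODE M21 annotation (GRCm38), and 50376 genes had one.

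Groups were formed from Acly CPM within each time point, and Acly was left out of the tests. The remaining genes were filtered with filterByExpr, scaled by TMM and tested with edgeR 4.0.16 (R 4.3.3) by its quasi-likelihood test with time point as a block and Benjamini-Hochberg adjustment over all tested genes at 0.05. Marker sums (log2 of CPM + 1) and library measures were compared by a two-sided exact permutation test within time points over all 1679616 assignments. DESeq2 1.42.0, another scaling, other filters, covariates, lanes and omitted libraries were alternatives, and the sets without muscle-rich libraries (over 1000 CPM of muscle markers) and without ZT9 replicate 3 were chosen after seeing the data. Scripts were tested on simulated counts.

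The 30 genes of lipid and glucose metabolism, the gene lists and the split itself were chosen with earlier results of these data known. Named besides them were the 10 highest and 10 lowest log2 fold changes among genes that passed at an average of 1 CPM or more and kept their direction at 7 or more time points, up to 4 genes per list by size of change, and the 5 genes most and least correlated with Acly. Other list members given with a value were picked after their values were seen, and some members are not reported here. Promoters came from RefSeq on GRCm38.p6.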

Additional observations from a re-analysis of the deposited data

Results flagged for a closer look

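For each of the 49 groups of 8 time points, the high-minus-low difference of a gene or measure was searched for a time point far from the other 7. Chance marks about 5% of such groups, and 2 were marked. Scd2, a stearoyl-CoA desaturase, differed by 2.288 in mean log2 CPM at ZT6, and the gap to the next time point was 0.676 of the whole range. Irs2, the insulin receptor substrate, differed by -3.186 at ZT18, with a gap of 0.533 of the range, where the high-Acly mice had 16.0 and 8.65 CPM and the low-Acly mice 108.12 and 108.03 CPM. The cause was not tested for either gene.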

How the results depend on the processing

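Of the 1625 genes that passed, other settings moved the number by over 1.5 times as follows, and the cause was not tested except where samples or genes were removed. Library size alone gave 2747, log2 Acly as a continuous covariate 3008 (1352 shared in direction), the highest against the lowest mouse 890, a test for changes over 1.5-fold 0, each of lanes 2, 3 and 4 by itself 0, 8 and 538, and the set without the muscle-rich libraries, chosen after seeing the data, 0. That set compares the groups at ZT0 to ZT9 alone. Leaving out 1 library gave 1031 to 2097 and leaving out 1 time point 837 to 1743. Size factors of DESeq2 (1612), a filter without groups (1577), no filter (2342), DESeq2 (2106), the split by Ucp1 (1468) and the set without ZT9 replicate 3 (1264) stayed within 1.5 times, and ranking Acly after TMM scaling moved 0 mice. Without a filter the interaction with phase gave 605 genes in place of 0, and the cause was not tested. Leaving out 1 library gave 0 to 179 interaction genes, the latter without ZT3 replicate 2. Of 11 marker and library measures 3 passed, against 1 to 4 with 1 library left out, with 1 without ZT0 replicate 4. Within lanes 2, 3 and 4 the measures gave 0, 0 and 0, which says nothing of stability, since the smallest p is 0.00926 on lanes 2 and 3, where 1 measure alone cannot pass the adjustment over 11, and 0.0556 on lane 4, where none can pass.

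Replicate numbers were not found to pair the mice: deviations of same-numbered mice correlated at over 0.1 in 49 of 112 pairs (range -0.73 to 0.81), and 4 of 32 libraries correlated best with their own number. With a replicate block 725 genes passed, 692 of them shared in direction. Of the 89 named genes that passed 57 did so with the block, with 19 of the 21 lipid and glucose genes (not Elovl3 and Scd1) and 3 of the 10 lowest genes, and all 89 had the same sign.

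Of 89 named genes that passed, 71 did so with every single library left out. Without the muscle-rich libraries the log2 differences of Bsn (-0.075) and Csrp3 (0.91) were reversed. Depth was alike between libraries (16300770 to 18254659 counts), and its part in the precision of single genes was not tested.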
